A study of Mus musculus with 26 samples.

Results

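Potassium channel genes of the mouse dorsal striatum were followed in ribosome-bound RNA of neurons that express the D2 dopamine receptor. They were chosen by name: every gene whose symbol begins with Kcn, together with Abcc8, the sulfonylurea receptor that completes a potassium channel. That rule gave 99 of the 31977 genes shared by all 26 count tables, 95 of them annotated as protein coding and 4 as antisense RNAs. The largest subfamilies were the inward rectifiers (Kcnj, 15 genes), the tandem-pore leak channels (Kcnk, 14), the Shaker-type channels (Kcna, 8) and the ether-a-go-go channels (Kcnh, 8).

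The Drd2-TRAP CP101 mice carry a ribosomal protein, Rpl10a, fused to EGFP in cells that use the Drd2 gene, on an FVB/N-Swiss Webster background backcrossed to C57BL/6. TRAP, translating ribosome affinity purification, pulls those tagged ribosomes and their RNA out of dissected tissue with antibodies to EGFP. The mice gave themselves cocaine or saline intravenously in long daily access, and the titles divide cocaine mice into escalating and non-escalating ones. The 23 purified libraries came from non-escalating mice after withdrawal (9 libraries), saline mice after withdrawal (5), escalating mice (2), non-escalating mice (4) and saline mice (3), and 3 libraries of unpurified input RNA came from saline withdrawal, non-escalating and saline conditions, 1 each. All groups carry the same transgene, the labels state neither the length of withdrawal nor the age and sex of the mice, and Drd2 is also used by cholinergic interneurons, so the tag is not limited to medium spiny neurons. Library numbers form set A, which holds every library without withdrawal, 4 of non-escalating withdrawal and 2 of saline withdrawal, and set B, which holds the other 5 and 3 of the withdrawal groups and the saline withdrawal input. The set of saline withdrawal set A replicate 2 is in doubt: its title lacks the copy mark of the other set A libraries, and its library number, the 32531 genes its table lists and its 3279457 gene counts are like those of set B. Nothing in the labels says that each library is a separate animal, so p-values set differences against the spread between libraries, which may be technical. Where purified libraries are compared with inputs, 1 input per condition means that this spread comes mostly from the purified libraries.

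Potassium channels let potassium leave or enter the cell and so pull the membrane toward rest. Medium spiny neurons rest at a very negative potential held by inward rectifiers, and on the way to a spike they are slowed by A-type channels of the Kcnd family with their calcium-binding Kcnip partners and by Kcna channels. In other cells of the same tissue the family has other roles: Kcnc channels give interneurons brief spikes, Kcnj10 clears potassium into astrocytes, and Kcnj8 and Kcnmb1 serve the muscle cells and pericytes of vessels.

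The 250 bases before the start of 6 genes are printed here because these genes stand for the groups the results turn on, namely 3 neuronal genes whose level fell with a library property described below, 2 vessel genes whose level rose with it, and the astrocyte gene lost on purification. The sequences are from RefSeq (GRCm38.p6), 5′ to 3′ on the gene's strand, and capitals mark GC boxes, the letters GGGCGG on either strand.
Kcnip2, chr19:45816064-45816313, minus strand: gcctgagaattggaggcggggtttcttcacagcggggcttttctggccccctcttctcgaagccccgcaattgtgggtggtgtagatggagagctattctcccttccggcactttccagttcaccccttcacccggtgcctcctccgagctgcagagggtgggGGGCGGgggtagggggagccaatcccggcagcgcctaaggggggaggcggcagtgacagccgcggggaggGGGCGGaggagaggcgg
Kcnd2, chr6:21215096-21215345, plus strand: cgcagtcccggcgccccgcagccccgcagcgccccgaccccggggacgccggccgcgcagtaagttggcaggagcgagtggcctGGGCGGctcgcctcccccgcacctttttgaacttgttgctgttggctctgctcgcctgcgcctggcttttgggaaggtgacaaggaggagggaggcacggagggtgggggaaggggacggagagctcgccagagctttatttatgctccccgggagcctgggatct
Kcnj4, chr15:79505242-79505491, minus strand: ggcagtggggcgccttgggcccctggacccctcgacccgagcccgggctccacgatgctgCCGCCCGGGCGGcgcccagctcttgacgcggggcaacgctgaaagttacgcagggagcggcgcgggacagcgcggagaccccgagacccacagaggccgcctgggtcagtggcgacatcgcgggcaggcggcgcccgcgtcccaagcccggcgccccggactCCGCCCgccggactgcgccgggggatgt
Kcnj8, chr6:142571615-142571864, minus strand: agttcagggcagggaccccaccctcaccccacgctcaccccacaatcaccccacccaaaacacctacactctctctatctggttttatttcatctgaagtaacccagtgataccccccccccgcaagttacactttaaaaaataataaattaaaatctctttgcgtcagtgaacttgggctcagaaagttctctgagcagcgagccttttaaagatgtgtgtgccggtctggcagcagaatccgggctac
Kcnmb1, chr11:33962763-33963012, plus strand: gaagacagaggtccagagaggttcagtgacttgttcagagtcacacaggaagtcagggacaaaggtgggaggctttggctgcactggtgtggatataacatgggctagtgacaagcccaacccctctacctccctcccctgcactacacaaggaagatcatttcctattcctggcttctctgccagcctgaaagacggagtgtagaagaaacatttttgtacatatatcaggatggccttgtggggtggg
Kcnj10, chr1:172340960-172341209, plus strand: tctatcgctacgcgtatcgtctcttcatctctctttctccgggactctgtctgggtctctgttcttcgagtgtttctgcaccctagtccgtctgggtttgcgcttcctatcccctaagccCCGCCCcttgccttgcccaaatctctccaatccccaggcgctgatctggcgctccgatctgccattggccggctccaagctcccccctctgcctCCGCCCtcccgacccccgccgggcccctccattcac

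The Kcnip2 window holds 2 GC boxes and 15 CpG dinucleotides, the Kcnd2 window 1 and 22, the Kcnj4 window 3 and 35, and the Kcnj10 window 2 and 17. Neither vessel gene has a GC box in its window, and Kcnj8 has 6 and Kcnmb1 1 CpG. Over the 72 members matched to a RefSeq promoter (97 windows), a GC box was in 44.3% of windows, against 32.7% of all 32851 promoter windows of the same length. A TATA box (TATAAA, either strand) was in 3.09% of members' windows, against 12.4% of all. The cAMP response element TGACGTCA, which reads the same on both strands, was in 0 of the members' windows, against 1.55% of all. These matches describe letters in a window and are not sites of binding.

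Total gene counts were 3279457 to 19122303 in purified libraries and 5016587 to 11549493 in inputs. The share of uniquely aligned reads that fell outside genes was 21.2% to 70.7% in purified libraries, against 27.3% to 31.6% in inputs. The members together held 0.222% to 0.654% of gene counts in purified libraries and 0.488% to 0.605% in inputs. Markers of D2 medium spiny neurons summed to 2904 to 16050 CPM (gene counts scaled to library size by TMM) in the 12 purified libraries of conditions with an input, against 2197 to 2393 CPM in inputs, and 8 of 10 passed the test as higher. Markers of D1 medium spiny neurons, astrocytes, oligodendrocytes and GABAergic interneurons fell in 6 of 9, 7 of 10, 9 of 10 and 4 of 8 tested. Cholinergic interneuron markers summed to 7.96 to 50.5 CPM in the same 12 purified libraries, against 85.9 to 177.7 CPM in inputs. The 13 endothelial and mural markers summed to 265.5 to 8434 CPM in those purified libraries, against 156 to 491 CPM in inputs, with 4 of 13 higher.

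Per kilobase of exon, the highest levels in purified libraries belonged to Kcnip3, Kcna1 and Kcnip2. Kcnip3, a calcium-binding partner of Kcnd channels (chromosome 2, 127456498 to 127522094 of GRCm38), was at 79.0 ± 36.3 CPM per kilobase in purified libraries (SD, n = 23) and 59.7 ± 24.6 in inputs (SD, n = 3). Kcna1, a low-threshold Shaker-type pore, was at 71.8 ± 24.7 in purified libraries and 97.0 ± 3.93 in inputs, and Kcnip2, the other abundant Kcnd partner, at 65.5 ± 27.2 and 73.2 ± 17.9 on the same per-kilobase scale. With SDs this wide the order of these 3 is within the spread between libraries.

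Others lay between 20 and 40 CPM per kilobase. Kcnd2, the A-type pore (chromosome 6, 21215503 to 21729805), was at 39.2 ± 13.9 CPM per kilobase in purified libraries. Kcnk2, a leak channel opened by stretch and lipids, was at 39.0 ± 14.8 on that scale. Kcnab2, a cytoplasmic subunit of Kcna channels, was at 29.0 ± 12.5 and Kcnj4, a strong inward rectifier (chromosome 15, 79483714 to 79505241), at 26.7 ± 12.02 CPM per kilobase. None of these is separated from the next of them beyond its spread.

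The leading member of other subfamilies was lower per kilobase. Kcnh1 was at 13.9 ± 7.33, Kcng3, a silent subunit that joins Kcnb pores, at 11.6 ± 5.14, Kcnc1 at 10.7 ± 4.07 and Kcnn3, a small-conductance calcium-activated channel, at 10.2 ± 4.20 CPM per kilobase in purified libraries. Kcns2 was at 3.66 ± 1.84, Kcnmb1 at 1.68 ± 2.54 and Kcne4 at 0.346 ± 0.389 CPM per kilobase. At the other end, 3 members had no count in any library, and 76 of 99 passed the filter on low counts among purified libraries.

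**Figure D1:**
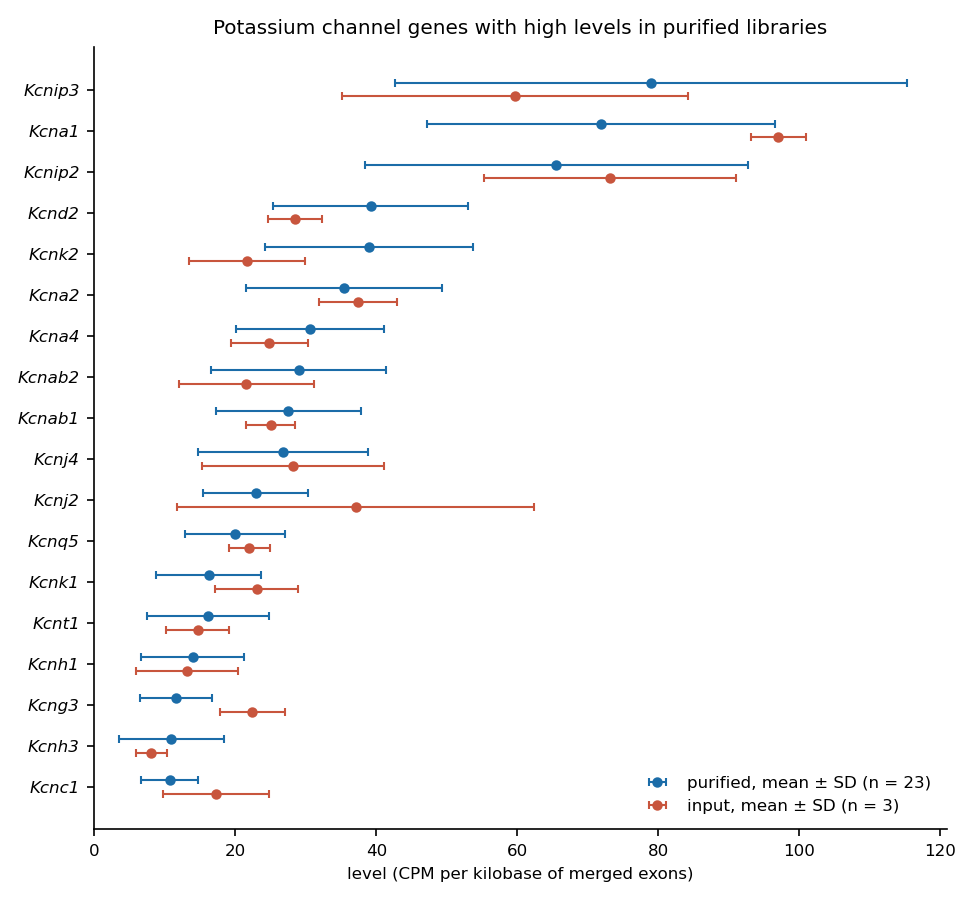
Level per kilobase of merged exons (x axis, CPM per kilobase) of potassium channel genes with high levels in purified libraries, as points at the mean with bars of ± SD, purified above input for each gene. Kcnip3, Kcna1 and Kcnip2 lead in both kinds of library, and the purified and input bars overlap for most genes.

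Which potassium channel genes the D2-neuron ribosomes carry in excess, or lack, was asked by comparing 12 purified libraries with the 3 inputs of the same conditions. Kcnc2, the Shaw-type pore of fast-spiking interneurons (ENSMUSG00000035681.7, chromosome 10, 112271121 to 112467024), fell to 0.0331 of its input level, and Kcnj10, the inward rectifier of astrocytes (ENSMUSG00000044708.5, chromosome 1, 172341210 to 172374085), fell to 0.111 of it. Kcnb2, Kcnh7, Kcng3 and Kcnd3 fell less, and Kcna5 rose. Of 70 members that passed the filter, 1 was higher and 6 were lower at an adjusted p under 0.05 (edgeR quasi-likelihood test, Benjamini-Hochberg over all genes), while 3.58% of all 15610 genes were higher and 3.8% lower, beside 1.43% of members higher and 8.57% lower. DESeq2 called 4 members higher and 9 lower, with 11.7% and 6.89% of all genes, and with the share of reads outside genes as a covariate, chosen after seeing the data, 5 were higher and 9 lower, with 5.97% and 5.53% of all genes. The members' median log2 fold change was -0.08, against 0.16 for all genes tested, and 21 members (30.0%) had an unadjusted p under 0.05, against 26.3% of all genes. With bulk RNA, fewer cells of a type and less RNA per cell cannot be told apart. Inputs are also unpurified RNA and purified libraries ribosome-bound RNA, so differences between cells and in ribosome binding cannot be told apart either.

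Kcnc2 was at 0.336 and 2.49 CPM in saline withdrawal libraries of set A, 2.26, 1.03 and 0.569 in those of set B, 0.696, 0.502, 2.42 and 2.33 in non-escalating and 2.10, 0.25 and 0.894 in saline libraries, against 48.4, 64.3 and 16.5 CPM in the saline withdrawal, non-escalating and saline inputs. Every purified library was below every input. Its log2 fold change was -4.92 ± 0.63 (SE; adjusted p = 0.000251, edgeR), and GABAergic interneuron markers, summed over the list, were at 38.1 to 149.8 CPM in the same purified libraries, against 284.5 to 735.9 CPM in inputs. The part of interneuron RNA in the Kcnc2 result was not tested.

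Kcnj10 had a lowest, median and highest level of 3.50, 6.11 and 24.5 CPM in the 12 purified libraries, against 143.3, 106.5 and 57.3 CPM in the saline withdrawal, non-escalating and saline inputs. The groups did not overlap, and the log2 fold change was -3.17 ± 0.46 (adjusted p = 0.000764, edgeR). Astrocyte markers summed to 168.7 to 392.6 CPM in the purified libraries, against 2052 to 3245 CPM in inputs, and their part was not tested. Kcnc2 and Kcnj10 passed in every alternative tried, including each with 1 library left out.

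Kcnd3, an A-type pore like Kcnd2 (chromosome 3, 105452330 to 105674002), had a lowest, median and highest level of 25.0, 45.7 and 69.5 CPM in purified libraries, against 122.3, 104.1 and 90.2 CPM in the saline withdrawal, non-escalating and saline inputs, and did not overlap. Its log2 fold change was -1.14 ± 0.25 (adjusted p = 0.0131, edgeR). The call was lost without the saline withdrawal input (adjusted p = 0.0588) and without the non-escalating input (adjusted p = 0.122). Kcnd2, the other A-type pore, was at 189.6 ± 76.2 CPM in these purified libraries and 146.6 ± 19.5 CPM in inputs (log2 fold change 0.52 ± 0.28, adjusted p = 0.246), and the difference between the 2 genes was not tested.

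Kcnh7, an ether-a-go-go-related pore (chromosome 2, 62693414 to 63184287), was at 7.06 to 32.5 CPM with a median of 19.1 in purified libraries, against 67.1, 51.3 and 50.1 CPM in the saline withdrawal, non-escalating and saline inputs. These did not overlap either (log2 fold change -1.29 ± 0.32, adjusted p = 0.0249, edgeR). Of the 70 members tested, 6 had every purified library below every input. Kcna1 and Kcnmb4 were among them and did not pass, so lack of overlap with 3 inputs does not mark out the called genes. The share of all genes without overlap was not counted. The call was lost when the saline withdrawal, the saline or the non-escalating input was left out (-1.24, -1.24 and -1.39, adjusted p = 0.0906, 0.0943 and 0.0965). Its exons share 696 bases with Gca on the other strand, and the sources do not state whether counting used the strand, so reads of the pair cannot be told apart. The same holds for 165 bases that Kcnd3 shares with its antisense RNA Kcnd3os.

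Kcng3, a silent subunit of Kcnb channels (chromosome 17, 83585957 to 83631895), had levels of 21.8 to 65.7 CPM with a median of 28.7 in purified libraries, against 58.9, 76.7 and 90.0 CPM in the saline withdrawal, non-escalating and saline inputs. Saline withdrawal set B replicate 3, at 65.7 CPM, was the purified library above the lowest input. The log2 fold change was -1.16 ± 0.33 (adjusted p = 0.0456, edgeR). Kcnb2, a delayed rectifier that can assemble with such subunits (chromosome 1, 15287254 to 15723750), was at 4.40 to 31.8 CPM with a median of 12.7 in purified libraries, against 146.2, 23.3 and 33.8 CPM in the saline withdrawal, non-escalating and saline inputs, so that the high mean of inputs rests on the saline withdrawal input. Its log2 fold change of -2.03 ± 0.58 (adjusted p = 0.0456, edgeR) became -0.73 (adjusted p = 0.433) without that input. Both calls sit at the threshold. With saline withdrawal set A replicate 2 as a set of its own both were lost (adjusted p = 0.0529 for Kcng3 and 0.0505 for Kcnb2), and with it placed in set B, an alternative chosen after seeing the data, 8 members were called, 1 higher and 7 lower. For Kcng3 the call was lost without saline withdrawal set A replicate 2, set B replicate 1 or set B replicate 2, saline replicate 1, 3 or 4, non-escalating replicate 3 or 4, or any input, with log2 fold changes of -1.37 to -0.93. For Kcnb2 it was lost without saline withdrawal set B replicate 1, 2 or 3, saline replicate 1 or 4, non-escalating replicate 1 or 4, or the saline withdrawal or non-escalating input, with log2 fold changes of -2.59 to -0.73.

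Kcna5, a delayed rectifier best known from heart and smooth muscle (chromosome 6, 126532551 to 126535412), was the member that rose. It was at 2.91 and 11.2 CPM in saline withdrawal libraries of set A, 13.7, 11.5 and 43.0 in those of set B, 11.7, 15.1, 21.1 and 19.8 in non-escalating and 33.5, 15.2 and 18.2 in saline libraries, against 0, 2.23 and 3.11 CPM in the saline withdrawal, non-escalating and saline inputs. All but saline withdrawal set A replicate 1, at 2.91 CPM, were above every input. The log2 fold change was 3.54 ± 0.83 (adjusted p = 0.0188, edgeR), and without the non-escalating input it was 4.01 with an adjusted p of 0.0719.

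**Figure D2:**
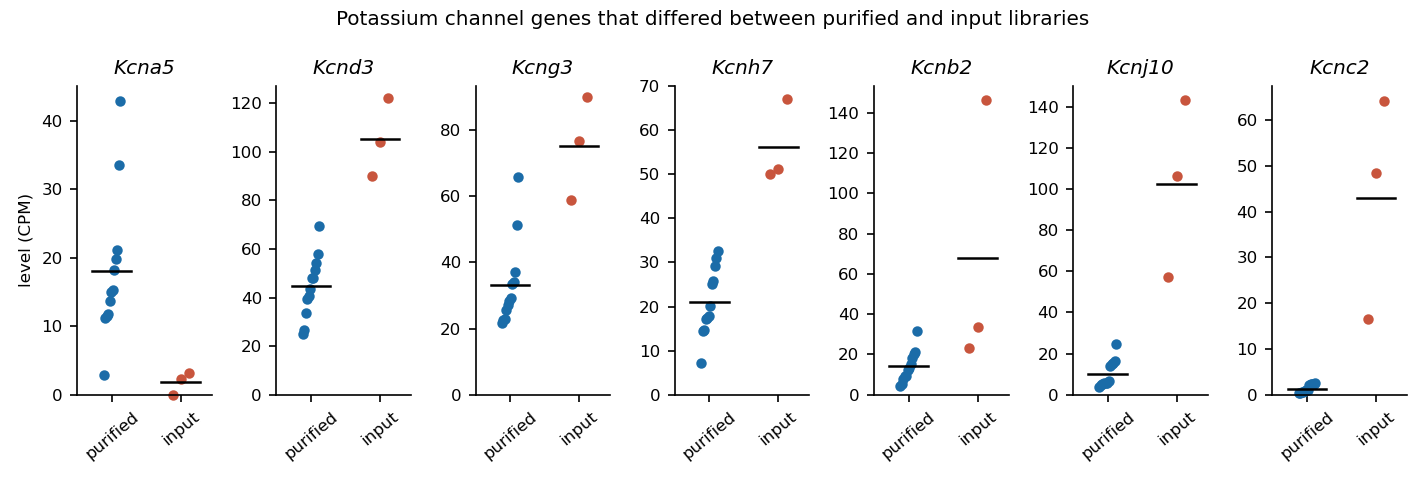
Level (CPM) of the 7 potassium channel genes that passed the test, in the 12 purified and 3 input libraries; points are libraries and bars are means, and each panel has its own axis from 0. Kcnc2, Kcnj10, Kcnd3 and Kcnh7 show no overlap, as did Kcna1 and Kcnmb4, which did not pass and are not drawn. Kcnb2 has 1 input at 146.2 CPM and 2 within the purified range or just above it.

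The inward rectifier Kcnj4 and the Kcnd partners Kcnip2 and Kcnip3 did not pass the test. Kcnj4 was at 55.7 ± 23.1 CPM in purified libraries (SD, n = 12) and 60.6 ± 27.8 CPM in inputs (SD, n = 3), a log2 fold change of 0.03 ± 0.33 (adjusted p = 0.965, edgeR). Kcnip2 was at 204.4 ± 80.5 CPM in purified libraries and 254.3 ± 62.1 CPM in inputs (-0.18 ± 0.28, adjusted p = 0.722), and Kcnip3 at 277.2 ± 113.6 and 211.7 ± 87.2 CPM (0.58 ± 0.23, adjusted p = 0.127). Missing the threshold with 3 inputs does not show equal levels.

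Abcc8 and its pore Kcnj11 make the ATP-sensitive channel of neurons and beta cells. Kcnj11 (chromosome 7, 46093953 to 46100764) had levels of 23.8 ± 15.1 CPM in purified libraries, against 0.913, 18.9 and 13.7 CPM in the saline withdrawal, non-escalating and saline inputs (log2 fold change 1.55 ± 0.65, adjusted p = 0.146, edgeR). Abcc8 (chromosome 7, 46104523 to 46180033) was at 12.5 ± 12.4 CPM in purified libraries and 14.2 ± 5.65 CPM in inputs (-0.53 ± 0.56, adjusted p = 0.585). Kcnj8, the pore of the vascular form, was at 21.3 ± 20.2 CPM in purified libraries and 4.27 ± 6.22 CPM in inputs (2.55 ± 1.32, adjusted p = 0.23).

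Some members had no count in any input. Against the 3 counts that a count of 0 allows over the pooled inputs, Kcnq1, an epithelial and cardiac pore, was at least 14.5-fold higher in purified libraries pooled, Kcne4, a small ancillary subunit, at least 8.31-fold, Kcnu1, a channel of sperm, at least 6.78-fold and Kcnk7, a tandem-pore family member, at least 5.25-fold higher. Of the 72 Kcnk7 counts 48 were in saline withdrawal set A replicate 1, and without that library the bound was 2.13-fold. These bounds cover counting error only, and Kcnq1 had counts in 8 of the 12 purified libraries. None of these 4 passed the test, and Kcnk7 did not pass the filter.

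Of 39 tested proteins that bind, anchor or modify potassium channels (the list was written with earlier results of these data known), 0 were higher and 3 lower, at a list median of -0.03. Over all genes 3.58% were higher and 3.8% lower, at a median of 0.16. Cntn2, an axonal adhesion molecule that gathers Kcna channels beside the node, was at 39.0 ± 13.4 CPM in purified libraries and 134.3 ± 30.8 CPM in inputs (-1.75 ± 0.29, adjusted p = 0.00233, edgeR). Gng2, a G protein subunit that opens Kcnj3-type channels, was at 17.3 ± 10.7 and 62.5 ± 22.8 CPM (-2.14 ± 0.53, adjusted p = 0.0235), a call lost without the saline or the non-escalating input (adjusted p = 0.14 and 0.133). Lgi2, a secreted partner of Adam receptors, was at 33.9 ± 26.2 and 80.4 ± 43.4 CPM (-1.60 ± 0.40, adjusted p = 0.0269). The Lgi2 call was lost without saline withdrawal set B replicate 2 (adjusted p = 0.0559) and without the saline withdrawal, the saline or the non-escalating input (-0.99, -1.87 and -1.93, adjusted p = 0.192, 0.0524 and 0.0674). Among these purified libraries Lgi2 was at 2.56 to 6.76 CPM in set B and 3.99 CPM in saline withdrawal set A replicate 2, and at 17.4 to 74.7 CPM in the rest.

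**Figure D3:**
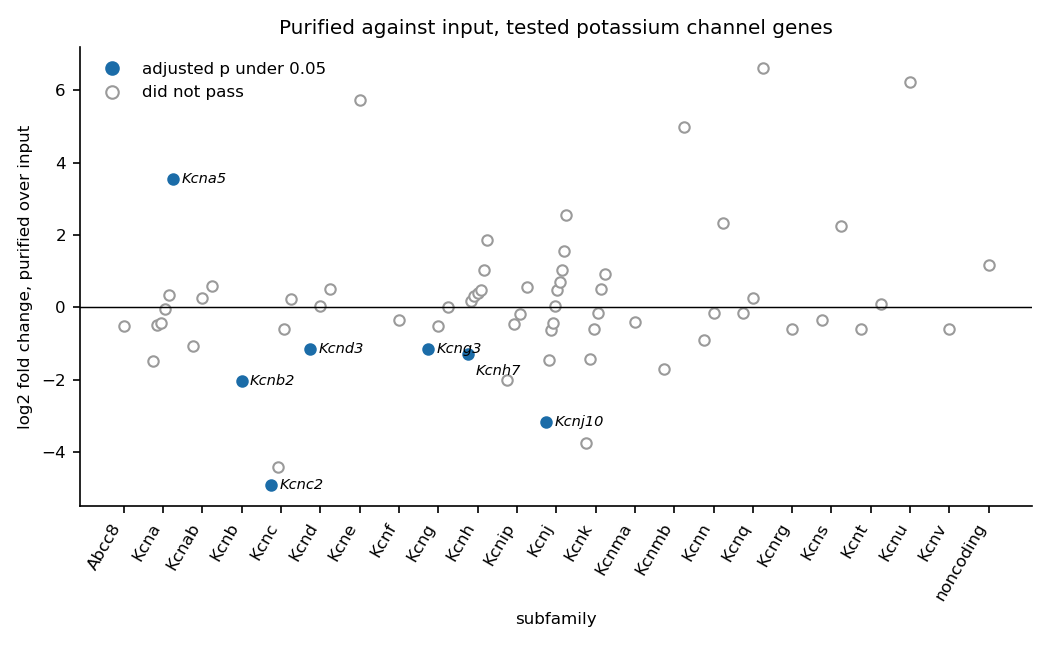
Log2 fold change of purified over input libraries (y axis) for tested members, grouped by subfamily (x axis); filled points passed at an adjusted p under 0.05. The filled points are spread over 7 subfamilies, and open points far above 0 include genes at or near 0 counts in inputs. Kcnj8, also open, had 50, 0 and 9 counts in the saline withdrawal, non-escalating and saline inputs.

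Among the 23 purified libraries, 47 of 76 tested members varied with the share of reads that fell outside genes, a property of the library that was known from earlier results of these data to move with many genes. Slopes are log2 change per 10 percentage points of that share, from a fit with group and library set as terms. The level of 37 of 76 tested members fell with the share and that of 10 rose (edgeR, adjusted p under 0.05), against 22.8% of all 16908 genes lower and 25.1% higher. The members' median slope was -0.33, against 0.02 for all genes. Many genes move with this share, so the members' slopes are read beside those backgrounds. The slopes do not test treatment, and the share itself differed between groups. Its mean was 47.5% in saline withdrawal and 31.9% in non-escalating libraries.

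By subfamily, all 3 Kcnd genes, 6 of 7 tested Kcnh, 4 of 6 Kcna, 3 of 4 Kcnip, 2 of 3 Kcnab, 3 of 5 Kcnq and 4 of 12 Kcnj fell. Among the tested Kcnk genes only Kcnk1 and Kcnk2 fell, Kcnk7 rose and the others did not pass. Kcnd2 was at 316.6, 289.1 and 240.9 CPM in the 3 purified libraries with the lowest share (non-escalating replicates 2 and 1 and saline replicate 3), against 112.5, 102.5 and 49.1 CPM in the 3 with the highest share (non-escalating withdrawal set B replicate 4 and set A replicate 1, and saline withdrawal set A replicate 1). Its slope was -0.46 ± 0.05 (SE; adjusted p = 1.13e-07, edgeR). Kcnip2 had levels of 253.8, 319.3 and 309.7 CPM at the low end, against 87.1, 112.0 and 39.2 CPM at the high end (-0.49 ± 0.07, adjusted p = 2.47e-06), and Kcnj4 91.7, 74.3 and 76.2 against 19.6, 30.7 and 9.19 CPM (-0.48 ± 0.09, adjusted p = 8.78e-05). The levels at the 2 ends, here and below, illustrate the slopes and add no support to them. Unlike the slopes they are not adjusted for group. All 3 libraries at the low end are without withdrawal and all 3 at the high end are after it, so share and withdrawal cannot be told apart in them.

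The steepest falls were those of Kcnh3, an ether-a-go-go-like channel of the forebrain (-0.69 ± 0.11), Kcnj11 (-0.65 ± 0.09), Kcnk1, a tandem-pore channel (-0.62 ± 0.10), and Kcnd1, another Kcnd gene (-0.62 ± 0.22). Kcnh2, Kcnh4, Kcnt1 (a sodium-activated channel), Kcnq3, Kcnab1 and Kcnn3 followed, at -0.55 to -0.50. The Kcnd1 call was lost without non-escalating withdrawal set B replicate 4, saline withdrawal set A replicate 1 or non-escalating withdrawal set A replicate 1 (-0.52, -0.46 and -0.61) and in set A alone (-0.52). The Kcng3 call (-0.30 ± 0.11) was lost without the first (-0.28) or the last (-0.21) of these libraries, and with DESeq2 (-0.23, adjusted p = 0.0501).

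Among the members that rose were genes known from vessel walls and epithelia and an imprinted antisense RNA. Kcnj8 (chromosome 6, 142564837 to 142571614) was at 4.27, 0.0994 and 0.873 CPM in the 3 libraries of lowest share, against 27.2, 54.2 and 66.9 CPM in the 3 of highest share, a slope of 1.18 ± 0.19 (adjusted p = 1.55e-05, edgeR). Kcnmb1, the subunit that tunes the large calcium-activated channel of smooth muscle (chromosome 11, 33963013 to 33973641), was at 0, 3.38 and 0.125 CPM at the low end, against 12.7, 10.7 and 50.7 CPM at the high end (1.5005 ± 0.24, adjusted p = 2.2e-05). Abcc9, the receptor that pairs with Kcnj8 in vessel walls and a member of the mural marker list, had a slope of 1.01 ± 0.16 (adjusted p = 2.11e-05). All 13 endothelial and mural markers rose and 8 of 10 D2-neuron markers fell with the share, and the part of vessel RNA in these slopes was not tested.

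Kcnq1ot1, an antisense RNA that silences imprinted neighbours in cis (chromosome 7, 143203458 to 143296549), was at 59.9, 16.6 and 43.2 CPM at the low end of the share, against 249.0, 290.5 and 403.4 CPM at the high end (0.78 ± 0.11, adjusted p = 2.98e-06, edgeR). Kcnq1 had the steepest slope of the members (1.87 ± 0.44, adjusted p = 0.00115), from 0 counts in each of the 3 libraries of lowest share. The exons of these genes share 121 bases on opposite strands, and as strand use in counting is not given, their reads cannot be told apart there. Kcnj13, an inward rectifier of epithelia (1.41 ± 0.27), overlaps Gigyf2 over 623 bases in the same way. Kcne4 (1.39 ± 0.44), Kcnj15 (1.22 ± 0.40), Kcnk7 (1.03 ± 0.38) and Kcnrg, a soluble regulator of channel assembly (1.01 ± 0.20), passed as higher. The Kcnj15 call was lost with DESeq2 (adjusted p = 0.0862), with voom (0.0681), in set A alone (0.108), with no group terms (0.0737) and with the replicate block (0.343), the Kcne4 call with no group terms (0.0644), and the Kcnk7 call with voom (0.0628) and without non-escalating replicate 3 (0.94, adjusted p = 0.0633).

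In set A alone 30 members fell and 7 rose, with 13.6% of all genes lower and 17.6% higher in the same fit. In set B alone 1 member fell and 3 rose, with 1.46% of all genes lower and 8.57% higher. Of the members called in set A, 29 of the 30 and 4 of the 4 that could be tested in set B had a slope of the same sign there. Kcnj8 had a slope of 1.30 in set A and 1.38 in set B, and Kcnmb1 1.66 and 1.49. Kcnd2 had -0.45 and -0.28 and Kcna1 -0.48 and -0.20, and whether the sets differ was not tested. Of the 40 tested partner proteins, in the fit of all 23 purified libraries, 28 fell and 3 rose, the 3 being Abcc9, Gng2 and Amigo3, a cell adhesion protein. Over all genes in that fit 22.8% fell and 25.1% rose, and the partner list was written with earlier results known. The Amigo3 call (0.66, adjusted p = 0.0412) was lost in set A alone (adjusted p = 0.117), with the replicate block (0.183), with no filter on low counts (0.0512), without the 2 libraries of most extreme share (0.363) and without any of 10 single libraries (0.0513 to 0.106).

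The promoter windows differed between these lists as a description. Of 37 windows, which came from 26 of the 37 genes that fell, 17 (46%) held a GC box and their median CpG count was 14. Of 8 windows, which came from 8 of the 10 genes that rose, 1 (12.5%) held a GC box, and the median CpG count was 4. Over all promoter windows 32.7% held a GC box, and the median CpG count was 6.

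**Figure D4:**
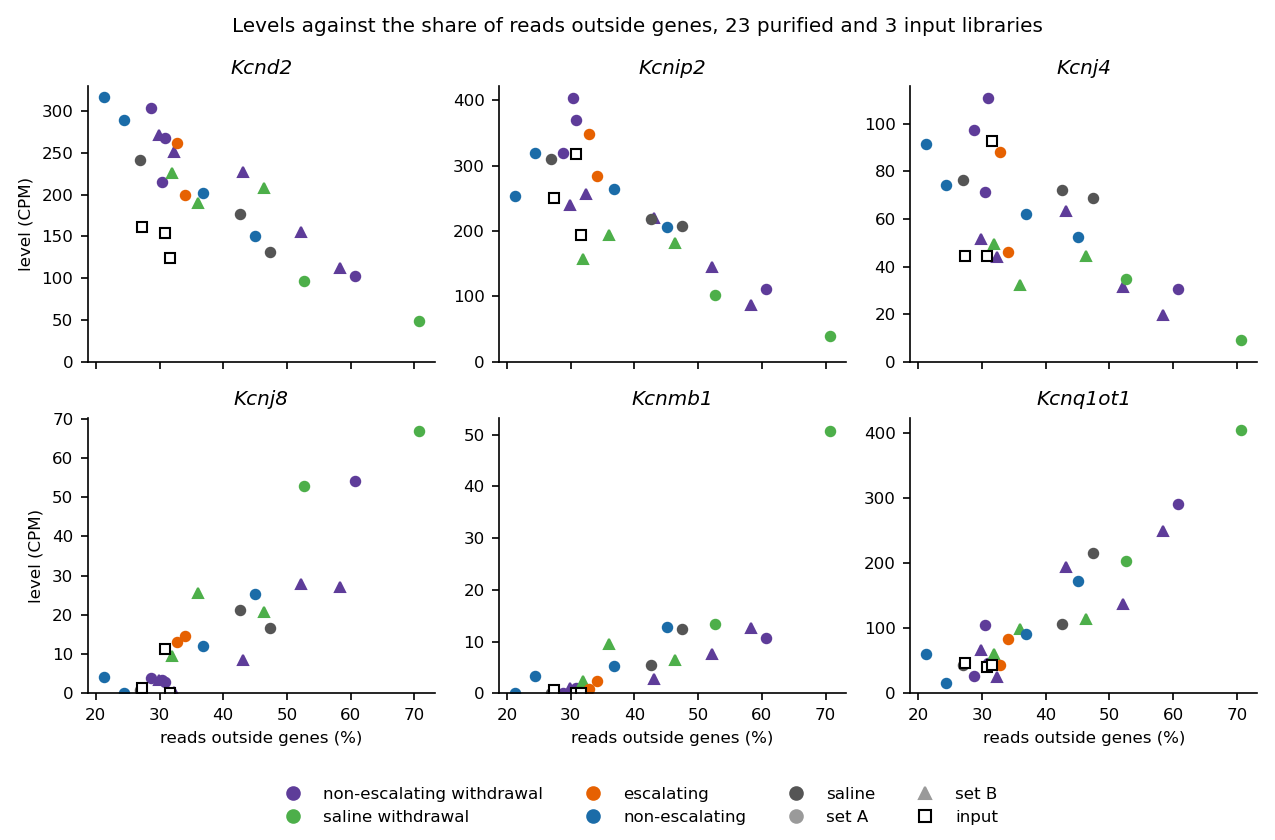
Level (CPM) against the share of reads outside genes (x axis, percent) for 6 members in the 23 purified libraries, coloured by group with circles for set A and triangles for set B, and in the 3 inputs (open squares). Kcnd2, Kcnip2 and Kcnj4 fall and Kcnj8, Kcnmb1 and Kcnq1ot1 rise from left to right, and saline withdrawal set A replicate 1 lies at the far right at 70.7%.

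Whether cocaine intake or withdrawal changed these channels was asked in 1 joint fit of the 23 purified libraries with library set as a term, over 6 differences between groups and the interaction. No potassium channel gene passed in any of the 7 contrasts (0 of 76; edgeR quasi-likelihood test, adjusted p under 0.05), where percent called over all 16908 genes was also 0. DESeq2 and limma voom likewise called 0 members, and at an unadjusted p under 0.05 there were 344 to 884 genes per contrast by edgeR. Over all genes DESeq2 called 1 to 12 genes per contrast and voom 0. Counts of members, of 76, with an unadjusted p under 0.05 follow, with counts of all 16908 genes in brackets. They were 1 for non-escalating withdrawal against saline withdrawal (881), 5 for saline withdrawal against saline (884) and 1 for non-escalating withdrawal against non-escalating (763). There were 2 for escalating against saline (518), 1 for escalating against non-escalating (558), 1 for non-escalating against saline (356) and 1 for the interaction (344). The genes named next are among the lowest unadjusted p of their contrast and did not pass.

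Abcc8 had the lowest p in 3 of the 7 contrasts, which share saline libraries. It was at 6.56 and 3.49 CPM in saline withdrawal libraries of set A and 3.69, 5.36 and 3.70 CPM in those of set B, against 46.1, 22.1 and 17.5 CPM in saline libraries. The groups did not overlap, and the log2 fold change was -2.20 ± 0.63 (unadjusted p = 0.00208, adjusted p = 0.782, edgeR). Abcc8 was picked by the p of these same values, so their separation, here or in the next contrast, adds no support. The share of all genes without overlap was not counted. In non-escalating libraries it was at 9.45, 2.39, 15.2 and 13.9 CPM, all below the saline libraries (-1.48 ± 0.58, unadjusted p = 0.0184, adjusted p = 1). In escalating libraries it was at 18.2 and 17.0 CPM, within or just below the saline range (-0.70 ± 0.71, adjusted p = 1). After withdrawal, non-escalating libraries had 3.27 to 20.8 CPM with a median of 7.13 (0.77 ± 0.46 against saline withdrawal, adjusted p = 0.749), and the interaction was 2.25 ± 0.74 (unadjusted p = 0.00602, adjusted p = 1).

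Saline replicate 1, at 46.1 CPM, carried part of this difference. Without it the log2 fold change of Abcc8 in saline withdrawal against saline was -1.67 (unadjusted p = 0.0233), and in non-escalating against saline -0.95 (unadjusted p = 0.156). Within set A alone, saline withdrawal set A replicate 2 included, the first of these was -2.50 (unadjusted p = 0.0101, adjusted p = 0.3005), and with the share of reads outside genes as a covariate it was -2.11 (unadjusted p = 0.00223, adjusted p = 0.901). With saline withdrawal set A replicate 2 placed in set B it was -1.97 (unadjusted p = 0.00706, adjusted p = 0.794). Kcnj11, the pore that pairs with Abcc8, was at 2.52 and 12.2 CPM in saline withdrawal libraries of set A and 16.4, 22.7 and 6.26 in those of set B, against 30.0, 45.0 and 23.2 CPM in saline libraries (-0.94 ± 0.74, adjusted p = 0.782).

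Kcnip2 had the lowest p in non-escalating withdrawal against saline withdrawal. It was at 87.1 to 403.8 CPM with a median of 239.8 in 9 non-escalating withdrawal libraries, against 39.2 and 102.1 CPM in saline withdrawal libraries of set A and 193.7, 157.2 and 181.0 in those of set B. The ranges overlapped (0.82 ± 0.38, unadjusted p = 0.041, adjusted p = 0.749, edgeR), and with saline withdrawal set A replicate 2 placed in set B the value was 0.74 (unadjusted p = 0.0751). Kcnj4 was at 57.8 ± 31.1 CPM in non-escalating withdrawal libraries (SD, n = 9) and 34.0 ± 15.5 CPM in saline withdrawal libraries (SD, n = 5), a log2 fold change of 0.67 ± 0.40 (adjusted p = 0.749). In that contrast 58 of 76 members had a positive log2 fold change, with a median of 0.54, against 0.01 for all genes, and in saline withdrawal against saline 54 of 76 were negative, with a median of -0.44, against 0.08. The mean share of reads outside genes was 40.7% in non-escalating withdrawal, 47.5% in saline withdrawal and 39.0% in saline libraries. With that share as a covariate the members' medians were 0.27 and -0.22, against 0.002 and -0.03 for all genes. In the same fit 56 of 76 members were positive in the first contrast and 56 of 76 negative in the second. DESeq2's scaling moved the median of all genes in saline withdrawal against saline to 0.22 and that of the members to -0.36.

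Kcnc2 had the lowest p for escalating against non-escalating, so the separation of its values there adds no support to that p. It was at 0.0644 and 0.158 CPM (1 and 3 counts) in escalating libraries, against 0.696, 0.502, 2.42 and 2.33 CPM in non-escalating libraries and 2.10, 0.25 and 0.894 CPM in saline libraries. Both escalating libraries were below all of those, at log2 fold changes of -3.57 ± 1.43 and -3.12 ± 1.43 (unadjusted p = 0.0207 and 0.0393, adjusted p = 1 for both, edgeR). Kcnj14, a low inward rectifier gene with the lowest p for escalating against saline, had 35 counts in escalating replicate 1 and 0 in escalating replicate 2, against 0 counts in each saline library.

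Kcnmb4, a neuronal subunit of the large calcium-activated channel, was second by p in saline withdrawal against saline. It was at 0 and 0.249 CPM in saline withdrawal libraries of set A and 1.23, 1.44 and 1.42 CPM in those of set B, against 2.44, 1.75 and 1.25 CPM in saline libraries (-3.29 ± 1.18, unadjusted p = 0.0103, adjusted p = 0.782, edgeR). Within the withdrawal group the libraries of set A, as assigned here, lay below those of set B, and exons of Kcnmb4 overlap antisense RNAs over 355 and 693 bases. Kcnip4, also among the lowest p there, had a log2 fold change of -0.96 ± 0.41 (unadjusted p = 0.0269) that became 0.09 without the term for library set. Kcns3, with the lowest p for non-escalating withdrawal against non-escalating, rested on set A replicate 2 of the withdrawal group, at 14.3 CPM, while the other 8 libraries of that group were at 0 to 1.02 CPM.

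Others among the 3 lowest p of a contrast were Kcna3, a Shaker-type pore (1.56 ± 0.85 for non-escalating against saline and -1.90 for escalating against non-escalating), and Kcng2, a silent subunit (2.85 ± 1.52 for escalating against saline). Kcnd3 had 0.78 ± 0.39 for escalating against non-escalating, and Kcnmb4 1.71 ± 0.86 for non-escalating withdrawal against saline withdrawal. Kcnrg had 2.12 and the tandem-pore gene Kcnk13 -2.31 for non-escalating withdrawal against non-escalating. Another tandem-pore gene, Kcnk10, had 4.57 for non-escalating withdrawal against saline withdrawal and 6.07 for the interaction, from levels of at most 1.70 CPM in non-escalating withdrawal libraries. All of these had an unadjusted p above 0.05, and none passed the test.

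Partners named by the same rule did not pass either. For non-escalating withdrawal against saline withdrawal the lowest p belonged to Dpp10, an auxiliary subunit of Kcnd channels (0.99 ± 0.41, unadjusted p = 0.0227), and to Vapa, Cntnap2 and Akap9, at 0.77, 0.74 and 0.36 (adjusted p = 0.749 for each, edgeR). For saline withdrawal against saline it belonged to Lgi1, Akap5, Epb41l3 and Cntnap2, at -0.96, -0.87, -0.91 and -0.96 (adjusted p = 0.782 for each).

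**Figure D5:**
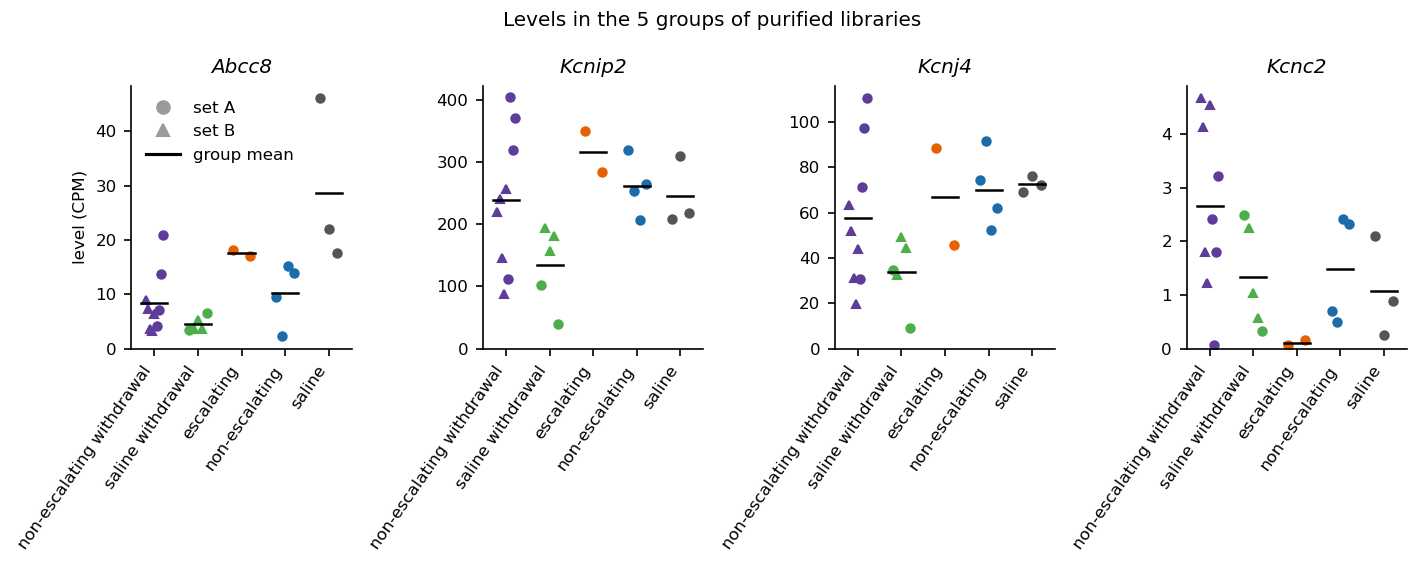
Level (CPM) of Abcc8, Kcnip2, Kcnj4 and Kcnc2 in the 5 groups of purified libraries; points are libraries (circles set A, triangles set B) and bars are group means. Abcc8 is at 3.49 to 6.56 CPM in saline withdrawal and 17.5 to 46.1 CPM in saline libraries, and no gene passed in any contrast.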

How the data were processed

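Counts of reads per gene symbol in 26 tables, as deposited by the authors with no normalization, were the starting point. The submitters' processing notes name STAR 2.0.0e, HTSeq and the build mm10; the sources used here do not state the annotation release, strand setting, kit or filters. The tables follow 2 annotations: 31735 symbols occur in both, and 242 renamed symbols were paired, which gave 31977 genes with 99.5% to 99.9% of each library's counts. Entries that name no gene entered only the share of reads outside genes (no-feature reads over gene, no-feature and ambiguous reads).

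Fits used R 4.3.3 and edgeR 4.0.16: TMM, filterByExpr and a quasi-likelihood F test, with Benjamini-Hochberg adjustment over all genes tested and a threshold of 0.05. Purified libraries were set against inputs in a fit with terms for condition and library set (10 residual degrees of freedom). Groups were compared in 1 fit of 23 libraries (17 degrees of freedom), and the share was added to that fit (16 degrees of freedom). Alternatives used DESeq2 1.42.0, limma 3.58.1 (voom), other scaling, filters and terms, 1 library set, and each library left out. Using the share as a covariate, and leaving out purified libraries with over 50% of reads outside genes, were chosen for the purified and input comparison after seeing the data, as was, for every comparison, placing saline withdrawal set A replicate 2 in set B. The fits were tested on simulated data. Per-kilobase levels use exon lengths of GENCODE M21, which was not used for counting.

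Members, lists, tests and the named-gene rule were chosen with earlier results of these data known. Named were the called members (12 per direction with the largest change where more were called), the 3 members of lowest p where none was, Kcnc2, Kcnip2, Kcnj4, Abcc8, Kcnj11 and Kcnj8, the highest member per kilobase of each subfamily of at least 3 and the partners called or, for the 2 contrasts that hold saline withdrawal, the 4 of lowest p. Some members that this rule names are counted but not reported here.

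Of 56 pairs of libraries in the same group none agreed within sampling noise (chi-square per degree of freedom 11.8 to 265). The bounds for members with no count in inputs cover counting error only, while SEs and SDs also hold the spread between libraries.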

Additional observations from a re-analysis of the deposited data

Results flagged for a closer look

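Among 134 sets of libraries (a named member in a group of 4 to 9 libraries), 18 held a library far from the rest of its group. The rule was Dixon's, the gap to the next library over the range. Its nominal rate of 5% is for normal data. With low counts 1 count among libraries at 0 is flagged, as for Kcns3, so no excess is read from the 18. Values are CPM, and the explanations were not tested.

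In saline withdrawal, set A replicate 1, the library with the highest share of reads outside genes, stood apart for Kcnmb1 at 50.72 (next 13.45), Kcnrg at 34.64 (next 9.218) and Kcnk7 at 2.69 (next 1.03). Set B replicate 3 stood apart for Kcna5 at 42.97 (next 13.73), Kcng3 at 65.73 (next 34.19) and Kcnk13 at 1.138 (next 0.206), and set B replicate 2 for Kcnj14 at 0.6179 (next 0).

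In non-escalating withdrawal, set A replicate 1 stood apart for Kcnq1 at 7.779 (next 2.664), Kcnj13 at 9.478 (next 4.294) and Kcnk10 at 1.699 (next 0.6234). Set A replicate 2 did so for Kcns3 at 14.26 (next 1.022) and Kcna3 at 17.38 (next 6.59), set B replicate 3 for Kcnk7 at 1.355 (next 0.6259), and set B replicate 4 for Kcnj15 at 2.454 (next 0.1788) and Kcnj14 at 1.022 (next 0.2672).

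In non-escalating libraries, replicate 3 stood apart for Kcnj14 at 2.421 and Kcnk7 at 0.2848 (next 0 in both), and replicate 4 for Kcns3 at 0.1058 (next 0).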

How the results depend on the processing

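For purified against input, 7 members were called (1 higher, 6 lower). DESeq2 called 13 (4 higher, 9 lower), the share of reads outside genes as a covariate 14 (5 higher, 9 lower), and leaving out each library in turn 2 to 8, the lowest without the non-escalating input and 4 without the saline withdrawal input. In the 7 group contrasts 0 members were called under every alternative tried, the replicate block and the placing of saline withdrawal set A replicate 2 in set B included. For the share of reads outside genes 47 members were called, 41 with the replicate block, 37 in set A alone, 35 when the 2 libraries of most extreme share were left out, 43 to 48 with each library left out, and 4 in set B alone. Same-numbered libraries of different groups gave no sign of pairing (25 pairs, median residual correlation -0.184, against -0.071 for 78 other pairs).

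Some signs changed. In purified against input, the share as a covariate gave 0.0182 for Kcnip2 and 0.0968 for Kcnn3. Voom gave 0.2087 for Abcc8 and -0.0892 for Kcnh1, and Kcnj4 was at -0.09 with no set term and -0.0667 with all 23 purified libraries. With each library left out the ranges were -0.4558 to 0.2025 for Kcnip2, -0.2384 to 0.3002 for Kcnj4, -0.2032 to 0.4481 for Kcnh1, -0.471 to 0.1879 for Kcnn3 and -0.9039 to 0.1018 for Kcns2. In the groups, no set term gave 0.0865 for Kcnip4 and 0.9589 for Kcnk13, and voom -0.1966 for Kcns3 and -0.9547 for Kcnk10. Left-out libraries gave -0.225 to 3.1313 for Lgi4 (non-escalating against saline) and -6.4906 to 0.7182 for Kcnj14 (interaction). Against the share, Kcnc2 was at -0.566 in set B and Abcc8 at 0.1295 in set A. The causes were not tested. Low counts limit the lowest members, and 3 inputs limit every comparison with purified libraries.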
